A study of Mus musculus with 4 samples.

Results

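The transcripts described here encode the enzymes that carry pyruvate into the mitochondrion, oxidize it to acetyl-CoA and burn it in the citric acid cycle, together with the malate-aspartate shuttle that moves cytosolic reducing equivalents inward. Members were taken from a list of 29 genes, and every probe set annotated to exactly 1 of them was used. Of the 29 genes, 24 had such a probe set, among 8251 genes with one in the whole data set; succinate dehydrogenase was left out of the list. The 5 genes with none were Mpc2, Pdhx, Pdk2, Pdp1 and Slc25a13, and they are not analysed here. The 24 genes had 30 probe sets, of which 23, from 20 genes, had a mean signal over the 4 arrays of at least 350.6 and were tested. The samples were total RNA from ventricles of 2 ERRα knockout hearts (ERRa ko) and 2 ERRα wild-type hearts (ERRa wt), all at baseline with no pressure overload, each on its own single-colour Affymetrix array. The allele, strain, sex and age of the mice are not given in the sources used here, nor whether the numbered samples were separate animals, so the p-values measure only the spread between these samples. The design compares the genotypes to find transcripts that depend on the receptor in the unstressed heart.

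Pyruvate enters mitochondria through a carrier made of MPC1 and MPC2 and is decarboxylated by the pyruvate dehydrogenase complex, which pyruvate dehydrogenase kinases switch off by phosphorylation and a phosphatase switches on. The heart takes most of its energy from fatty acids and can turn to glucose and lactate, and the state of this complex sets how much pyruvate is burnt. ERRα, encoded by Esrra, is an orphan nuclear receptor that acts with the coactivator PGC-1α on genes of mitochondrial energy metabolism, among them several of the cycle, and it binds an extended site that ends in AAGGTCA.

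Esrra itself, with 1 probe set, gave signals of 83.6 and 55.2 in knockout ventricles against 2688 and 2828 in wild-type ventricles (limma adjusted p = 0.0441), with both knockout values under the signal floor of 110. This probe set carries a suffix treated here as marking possible cross-hybridization, the binding of other transcripts. Over 12 alternative settings its adjusted p ran from 0.00243 to 0.752, and the call was lost with the floor at the 5th or 40th percentile, with no filter on low signals, with the sample number as a block and without any 1 array. With the other probe set Esrra gave 922 and 1050 against 8598 and 8039, which did not pass (limma adjusted p = 0.179; 0.00590 to 0.752 over 13 alternatives). Whether these probes fall inside the deletion is not given in the sources used here. Myh6 and Myl2, the heavy chain and regulatory light chain of ventricular muscle myosin, gave strong signals on every array, of 95332 to 133445 and 154809 to 205416. Of the 8 tested probe sets of ventricular muscle markers, 3 (Tnnt2, Tnni3 and Mb) lay lower without overlap and 0 higher. For this and the marker counts below, 16.7% of all 7453 tested probe sets lay lower without overlap and 20.7% higher. The list's 9 probe sets summed to 724296 and 882767 in knockout against 884596 and 892534 in wild type. Markers of other cells also differed in level between the groups. The 5 probe sets of 4 atrial markers (Nppa, Myl4, Myl7 and Sln) summed to between 19106 and 19815 in knockout against 10121 to 12524 in wild type, and all 4 of them that were tested lay higher without overlap. Of 9 tested fibroblast probe sets, 8 lay higher without overlap, with summed signals of 88891 to 92713 against 66034 to 74984, and of 6 endothelial probe sets 3 lay lower, with sums of 11926 to 11990 against 13667 to 17121. Summed signals also stood apart for smooth muscle, 14298 to 22412 in knockout against 6474 to 8035 in wild type. Acta2 led that sum, at 18753 and 10915.5 against 4135 and 2909, while Myh11, Tagln and Cnn1 overlapped. Sums likewise stood apart for leukocytes (9287 to 10073 against 7912 to 8274), adipocytes (2540 to 2645 against 2045 to 2129) and skeletal muscle (32835 to 33915 against 46313 to 63150, led by lower Acta1). Those of erythrocytes overlapped. Single probe sets within these lists were mixed. Higher without overlap were 1 of 3 tested for smooth muscle (Acta2), 1 of 4 for leukocytes and 1 of 2 for adipocytes (Adipoq). The other adipocyte probe set, Fabp4, overlapped (log2 -0.02). The stronger probe set of the leukocyte marker Adgre1, below the filter, was lower in knockout, at 176 and 202 against 396.5 and 499.7. Of 4 tested for skeletal muscle, 2 lay lower and 1 higher. No marker gene of these lists was below the floor on every array. The ratio of 5' to 3' signal of β-actin was 0.694 and 0.813 in knockout against 0.966 and 0.909 in wild type. That of GAPDH differed less, at 0.994 and 0.968 against 1.039 and 1.015. The part of any of these in the values below was not tested, and in whole ventricle fewer cells of a type and less RNA per cell cannot be told apart.

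As a group, the transcripts of pyruvate oxidation and the cycle did not move in one direction in knockout ventricles. None of the 23 tested probe sets passed limma's test at an adjusted p of 0.05 over all 7453 probe sets (adjusted p from 0.694 to 0.997), where 0.0134% of all probe sets passed; 1 had an unadjusted p under 0.05, against 6.79% of all. Log2 differences, knockout minus wild type, had a median of -0.01 over the members and 0.03 over all probe sets, and 11 members (47.8%) were higher in knockout and 12 lower, where 53.2% of all probe sets were higher. Both knockout arrays lay above both wild-type arrays for 5 member probe sets (20.7% of all probe sets did so) and below them for 4 (16.7% of all), so the members' shares of 21.7% and 17.4% were near those of the whole array. That split depended on the scaling: it was 4 higher and 11 lower after scaling the arrays to a common median (12.9% and 27.0% of all probe sets), and 7 higher and 2 lower after quantile normalization (18.7% and 18.1% of all). Only 1 of the 23 differed by at least 1.5-fold without overlap, the weaker Dlat probe set, where 11.0% of all probe sets did (6.84% higher and 4.2% lower). These shares were not matched for signal. The median absolute log2 difference was 0.20 for the members, 0.23 over all probe sets and 0.16 over the 1491 of strongest signal. Of those 1491, 632 were higher in knockout and 859 lower, with a median of -0.05. The precision was limited by the 4 arrays: the 95% interval of a member's log2 difference had a median width of 1.24, so differences of moderate size in single genes were not detectable.

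**Figure D1:**
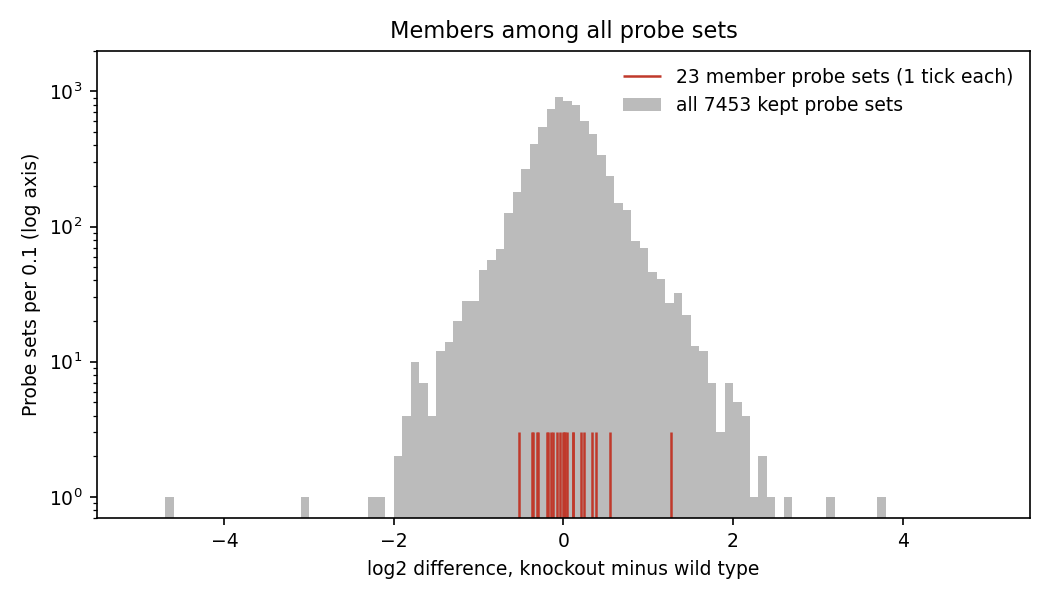
Histogram of the log2 difference, knockout minus wild type, for all 7453 tested probe sets (grey, log vertical axis in probe sets per 0.1), with a red tick for each of the 23 member probe sets. The members lie between -0.53 and 1.27, and all but the tick at 1.27 (weaker Dlat probe set) lie within 0.55 of 0.

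The upstream sequences of 3 members whose genotypes did not overlap are shown because the missing receptor binds DNA directly. Got2 and Fh1 hold the core AGGTCA, common to many nuclear receptors, within 250 bases before the start site. They were the 2 genes that did so among the 8 non-overlapping members with a sequence (Idh3a has no entry). The core is not particular to such members. Sucla2, Got1 and Mpc1, whose groups overlapped, also hold it within 250 bases before a start site, and Got1 and Mpc1 were below the filter. The share over all genes for these 250 bases is not given here, so the count is a description only. Pdk4, a kinase gene known to respond to fasting, holds none there. Sequences are from RefSeq (GRCm38.p6), 250 bases that end at the base before the start site, written 5′ to 3′ along the gene, with the core in capitals (TGACCT where it is on the other strand). They lie at chr8:95888402-95888651, chr1:175625636-175625885 and chr6:5496279-5496528, all on the minus strand.
Got2: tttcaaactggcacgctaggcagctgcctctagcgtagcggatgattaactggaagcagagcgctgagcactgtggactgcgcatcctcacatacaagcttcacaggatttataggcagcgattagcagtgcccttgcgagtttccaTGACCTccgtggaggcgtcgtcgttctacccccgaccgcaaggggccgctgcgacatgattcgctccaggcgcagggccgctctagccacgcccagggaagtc
Fh1: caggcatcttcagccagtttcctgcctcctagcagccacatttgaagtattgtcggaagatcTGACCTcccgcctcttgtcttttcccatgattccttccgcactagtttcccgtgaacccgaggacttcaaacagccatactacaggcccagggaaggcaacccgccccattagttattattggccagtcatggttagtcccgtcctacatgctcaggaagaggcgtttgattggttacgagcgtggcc
Pdk4: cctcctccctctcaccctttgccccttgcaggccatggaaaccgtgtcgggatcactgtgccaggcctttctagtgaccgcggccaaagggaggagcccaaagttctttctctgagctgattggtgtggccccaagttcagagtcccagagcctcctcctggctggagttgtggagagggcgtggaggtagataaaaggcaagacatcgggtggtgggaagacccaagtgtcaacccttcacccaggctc

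The core starts 103 bases before the start site in Got2 and 188 bases in Fh1. The extended site TNAAGGTCA, searched on both strands from 250 bases before to 50 after each start, was in none of 35 such windows of 27 listed genes and in 1.28% of all 32851 windows. The shorter AGGTCA, which every TNAAGGTCA also contains, was in 7 of the 35 windows and in 16.3% of all windows. These 7 belonged to Fh1, Got1, Got2, Idh3g, Mpc1, Ogdh and Sucla2. The counts describe letters in a short window only.

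In the pyruvate dehydrogenase complex, the catalytic α subunit Pdha1 was the member with lower signal in both knockout samples. Pdha1 gave 32752 and 34278 in knockout against 36205 and 51262 in wild type. The groups did not overlap, but the first wild-type array lay close to the knockout arrays and most of the difference came from the second (log2 -0.36, SE 0.26, limma adjusted p = 0.829). Without wild-type sample 2 the log2 difference was -0.11. Pdhb, the β subunit that pairs with Pdha1, gave 27659 and 16219 against 25076 and 18040. Its groups overlapped fully, and samples of the same genotype differed more than the genotype means (log2 -0.01, SE 0.36).

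Dlat encodes the acetyltransferase core of the complex, and its 2 probe sets disagreed. The weaker one gave 942 and 762 in knockout against 462 and 268.0 in wild type, a difference of log2 1.27 (SE 0.34, 95% interval 0.37 to 2.17) that did not pass (limma adjusted p = 0.694, unadjusted p = 0.0161). It was the largest log2 difference among the tested member probe sets. The stronger one gave 3689 and 4175 against 3200 and 4109, with overlap and a log2 difference of 0.11 (95% interval -0.51 to 0.74). Dld, the dihydrolipoamide dehydrogenase shared by the pyruvate and oxoglutarate dehydrogenase complexes, gave 17335 and 18679 against 18618 and 21472. These groups overlapped by a small margin (log2 -0.15, SE 0.21).

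**Figure D2:**
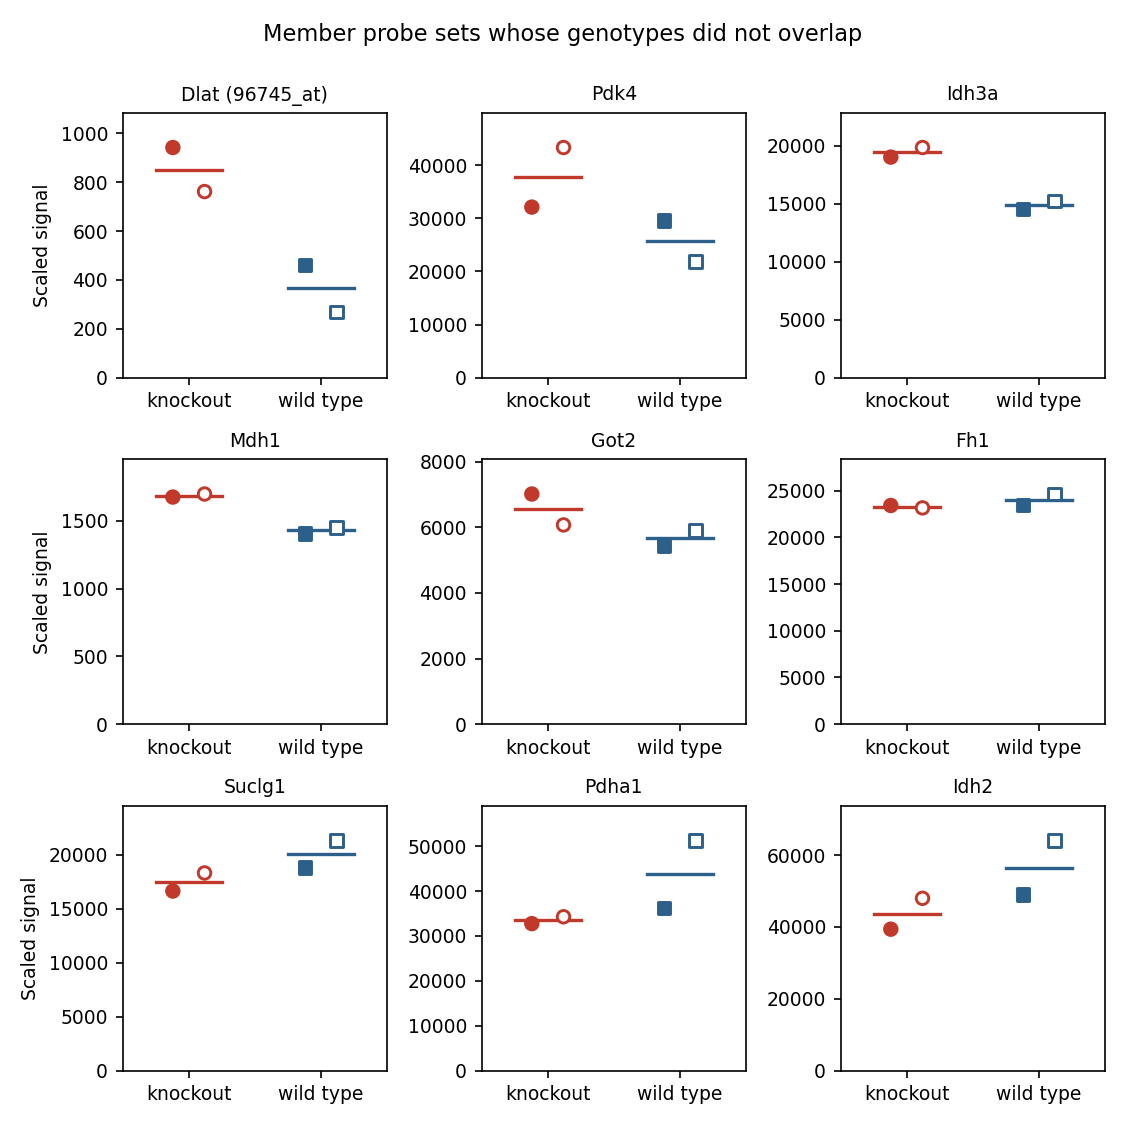
Scaled signal (linear axis from 0) on each array for the 9 tested member probe sets whose genotypes did not overlap, knockout in red on the left and wild type in blue on the right of each panel; filled symbols are sample 1, open symbols sample 2 and bars the means. Dlat (weaker probe set), Pdk4, Idh3a, Mdh1 and Got2 lie higher in knockout, and Fh1, Suclg1, Pdha1 and Idh2 lie lower, by margins that for Fh1 are barely visible.

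Among the kinases, Pdk4 had the higher signal in both knockout samples. PDK4 is the kinase that rises with fasting and fatty acid supply, and in cultured muscle cells its gene is known to respond to PGC-1α through ERRα. Pdk4 gave 32119 and 43337 in knockout against 29641 and 21918 in wild type. The lower knockout array lay just above the higher wild-type array, and within each genotype the samples differed by 0.43 and 0.44 on the log2 scale. The genotype difference was 0.55 (SE 0.28, 95% interval -0.19 to 1.29, limma adjusted p = 0.791), and it ran from 0.33 to 0.77 over 13 alternative settings. Pdk1, a kinase induced by low oxygen, gave 1765 and 2923 against 1617 and 1988, with overlap. Its log2 difference of 0.34 (SE 0.32) rested on knockout sample 2, without which it was -0.02. Pdk3 was below the filter, with 237 and 414 against 322 and 211, and showed no order by genotype.

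At the entry to the mitochondrion, the carrier subunit Mpc1 was also below the filter. It gave 99.5 and 244 in knockout against 289 and 206 in wild type. The groups overlapped.

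In the citric acid cycle, 4 of 13 tested probe sets were higher in knockout and 9 lower, with a median log2 difference of -0.12 and a range from -0.53 to 0.38. Idh3a was the one that lay higher without overlap, and Idh2, Suclg1 and Fh1 lay lower without overlap. Over all probe sets 53.2% were higher, 20.7% higher without overlap and 16.7% lower without overlap. Of the 1491 probe sets of strongest signal, 632 were higher in knockout and 859 lower. Citrate synthase, Cs, which opens the cycle, gave 34194 and 37477 against 29941 and 36548, with overlap (log2 0.11, SE 0.22).

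Idh3a encodes the catalytic subunit of the NAD-dependent isocitrate dehydrogenase that drives the cycle forward. Its main probe set gave 19000 and 19827 in knockout against 14520 and 15241 in wild type. Both pairs of samples were tight, and the gap between genotypes was wider than that within either (log2 0.38, SE 0.20, 95% interval -0.13 to 0.90, limma adjusted p = 0.791). The genotypes stayed apart after median scaling (log2 0.26) and quantile normalization (log2 0.44), the alternatives that could have closed the gap. Log2 differences over all 13 alternatives lay between these values. With no filter on low signals the limma adjusted p was 0.399. The regulatory subunit Idh3g did not share this: it gave 15996 and 17657 against 16798 and 21733, with overlap (log2 -0.19, SE 0.23). The other regulatory subunit, Idh3b, was below the filter, at 104 and 378 in knockout against 91.9 and 87.3, and 3 of its 4 values lay under the floor. The second probe sets of Idh3a and Idh3g were below the filter too, at 11.4 to 128 and 143 to 453 over the 4 arrays, with overlap.

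Idh2, the NADP-dependent mitochondrial isocitrate dehydrogenase that supplies NADPH, lay on the other side. It gave 39388 and 47987 in knockout against 48979 and 64072 in wild type. The second knockout array and the first wild-type array almost met, and both pairs of samples were spread (log2 -0.37, SE 0.25, 95% interval -1.03 to 0.30, limma adjusted p = 0.828). Without wild-type sample 2 the log2 difference was -0.17. The difference between the responses of Idh2 and Idh3a was not tested.

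**Figure D3:**
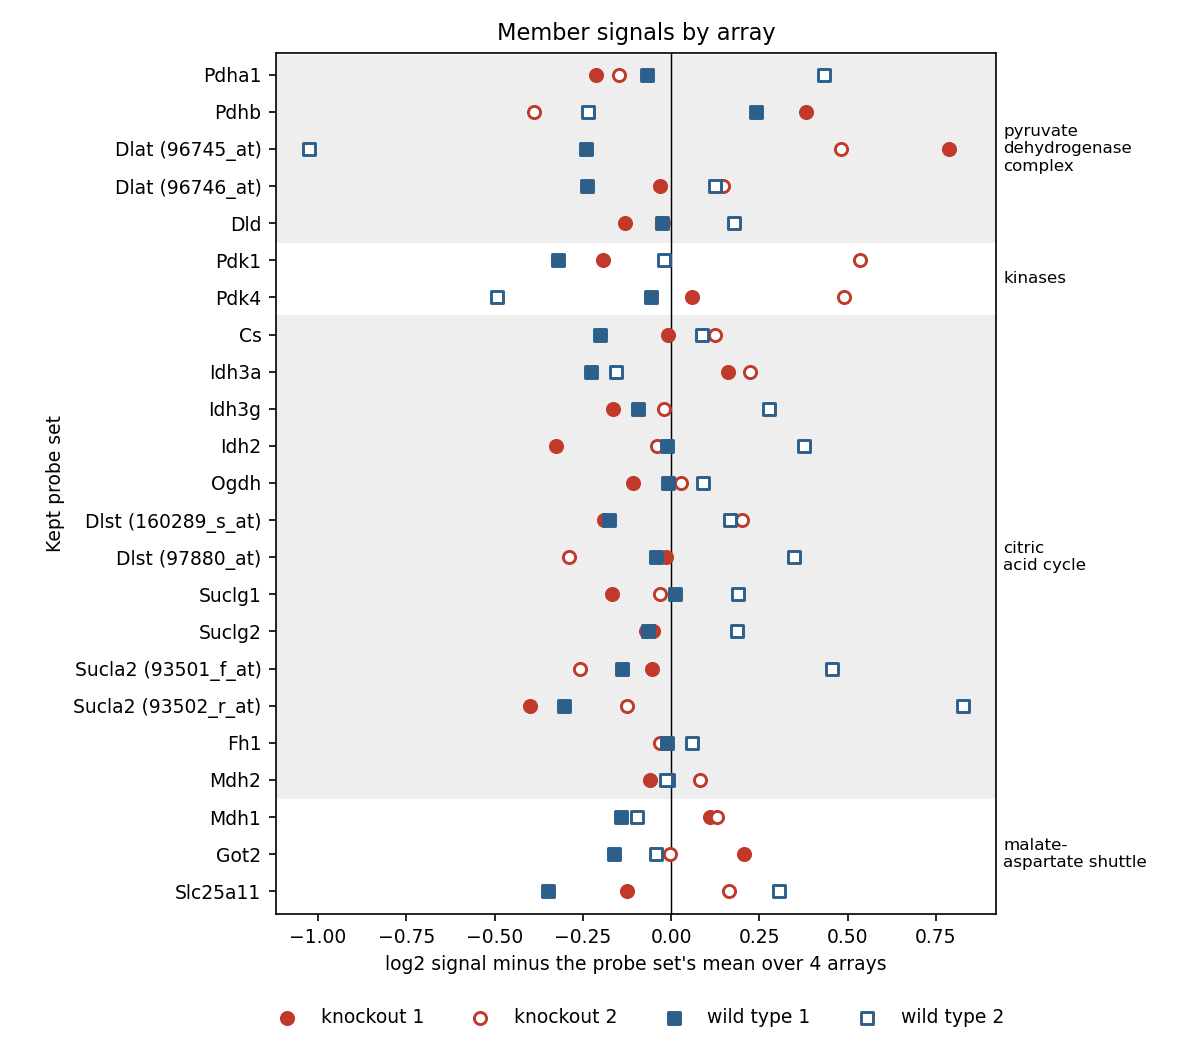
Log2 signal on each array minus that probe set's mean over the 4 arrays, for the 23 tested member probe sets grouped by role; red circles are knockout, blue squares wild type, filled symbols sample 1 and open symbols sample 2. The open squares (wild type 2) are the rightmost symbol for 12 of the 23, and the filled squares (wild type 1) for 0.

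The oxoglutarate dehydrogenase complex showed overlap throughout. Ogdh, its decarboxylase, gave 50429 and 55471 against 54085 and 57878 (log2 -0.08, SE 0.20). Dlst, its succinyltransferase, had a log2 difference of 0.01 on 1 probe set (SE 0.26) and -0.30 on the other (SE 0.25). Succinyl-CoA ligase, which makes ATP or GTP from succinyl-CoA, is built from the shared α subunit Suclg1 and a β subunit that sets the nucleotide, Sucla2 for ATP and Suclg2 for GTP. Suclg1 gave 16642 and 18316 in knockout against 18831 and 21321 in wild type, lower without overlap by a small margin (log2 -0.20, SE 0.21, limma adjusted p = 0.870). After quantile normalization the groups overlapped. Suclg2 gave 8333 and 8230 against 8263 and 9837, and the 2 probe sets of Sucla2 had log2 differences of -0.31 and -0.53. Both Sucla2 probe sets, and the Dlst probe set at 0.01, carry suffixes treated here as marking possible cross-hybridization. Both Sucla2 differences came from wild-type sample 2, at 26279 and 1557, which stood above the other 3 arrays at 16021 to 18459 and 665 to 804; without that sample they were -0.02 and 0.04.

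Fumarase and malate dehydrogenase, at the end of the cycle, had the most even signals among the tested members. Fh1 gave 23410 and 23155 in knockout against 23462 and 24640 in wild type. The groups did not overlap by the narrowest of margins (log2 -0.05, SE 0.19, 95% interval -0.56 to 0.47, limma adjusted p = 0.964), and the sign turned after quantile normalization, to 0.04. Mdh2, the mitochondrial malate dehydrogenase that serves both the cycle and the shuttle, gave 81152 and 89417 against 84106 and 83732, with overlap (log2 0.02, SE 0.20).

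In the malate-aspartate shuttle all 3 tested genes had a higher mean in knockout, 2 of them without overlap, where 53.2% of all probe sets were higher and 20.7% higher without overlap. Mdh1, the cytosolic malate dehydrogenase, gave 1676 and 1699 in knockout against 1407 and 1453 in wild type. These were tight pairs that stood apart (log2 0.24, SE 0.19, limma adjusted p = 0.837). They stayed apart after median scaling (log2 0.12) and quantile normalization (log2 0.19), the alternatives that could have closed the gap. Got2, the mitochondrial aspartate aminotransferase, gave 7016 and 6074 against 5442 and 5903, with a narrow gap that closed after median scaling (log2 0.20, SE 0.21, limma adjusted p = 0.865). This probe set carries a suffix that marks probes outside the usual selection rules, and a second Got2 probe set below the filter ran the other way, at 55.6 and 70.8 in knockout against 260.3 and 145 in wild type. Slc25a11, the carrier that exchanges malate for oxoglutarate, gave 16665 and 20355 against 14273 and 22451. Its knockout values lay inside the wild-type range (log2 0.04, SE 0.31). Got1, the cytosolic aminotransferase, was below the floor on every array (33.6 and 59.5 against 72.7 and 49.2), so no difference could be read from it.

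**Figure D4:**
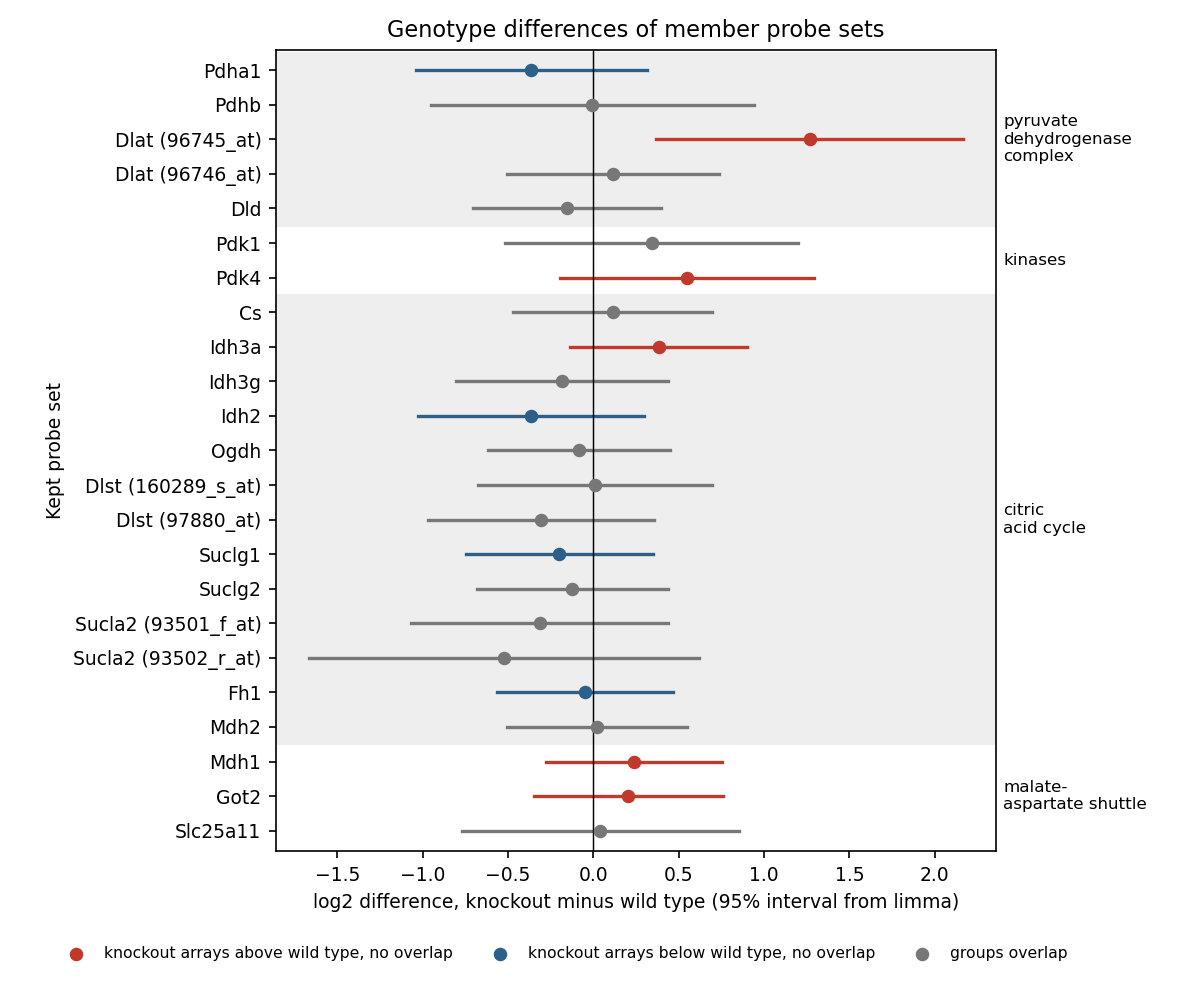
Log2 difference, knockout minus wild type, with limma's 95% interval for each of the 23 tested member probe sets grouped by role; colours mark whether the arrays of the 2 genotypes overlapped. The interval of the weaker Dlat probe set, 0.37 to 2.17, is the only one that leaves out 0, before any adjustment.

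The wild-type samples differed more for these genes than over all probe sets, and the knockout samples did not. The median absolute log2 gap between wild-type samples was 0.34 for the members, 0.28 over all probe sets and 0.19 over the 1491 of strongest signal. Between knockout samples it was 0.18 for the members, 0.28 over all and 0.18 over those 1491, so the knockout members were near other probe sets of strong signal. Wild-type sample 2 was above wild-type sample 1 for 19 of the 23 probe sets (82.6%), with a median log2 gap of 0.25; over all probe sets the share was 49.6% with a median of 0.00, and over the 1491 probe sets of strongest signal 50.03%. Knockout sample 2 was likewise above knockout sample 1 for 16 of the 23, with a median log2 gap of 0.13, against 3760 of all 7453 probe sets and a median of 0.0038. Sample 2 of the wild type was the highest array for 12 members and wild-type sample 1 for 0. The wild-type gap was larger than the genotype difference for 15 members (65.2%), against 56.8% of all probe sets. The knockout gap was larger for 9 of the 23 members, against 4190 of all 7453 probe sets. Set against the mean of both wild-type arrays, the median member signal was -0.10 and -0.01 in knockout and -0.13 and 0.13 in wild type. The wild-type medians mirror each other because their own mean is the reference. The order of these medians does not hold for single members, of which 9 of the 23 did not overlap between genotypes. The median genotype difference was -0.13 without wild-type sample 1 and 0.02 without wild-type sample 2.

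A companion list of 37 genes that feed or drain the pathway was read beside the members. Of these, 22 had 24 tested probe sets, of which 0 passed by limma at an adjusted p of 0.05; 8 were higher without overlap and 4 lower (20.7% and 16.7% of all probe sets), with a median log2 difference of 0.06. The 2 with the lowest unadjusted p were Slc25a10 and Me1. Slc25a10, the mitochondrial dicarboxylate carrier, gave 224 and 274 in knockout against 772 and 463 in wild type (log2 -1.27, SE 0.33, limma adjusted p = 0.694, unadjusted p = 0.0137). Its knockout mean of 249 was below the filter of 350.6, so it was tested only through its wild-type mean of 617, and its p is no support for a difference. Me1, the cytosolic malic enzyme that turns malate into pyruvate, gave 4740 and 4069 against 2800 and 2804 (log2 0.65, SE 0.21, limma adjusted p = 0.694, unadjusted p = 0.0293). Neither pair of groups overlapped. Of the 4 succinate dehydrogenase subunits, Sdhd and Sdhc gave 57193 and 62917 against 56281 and 44372, and 39409 and 42165 against 37768 and 35390, and lay higher without overlap, while Sdhb and Sdha overlapped, with log2 differences of 0.05 and -0.22.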

How the data were processed

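The deposited values are a linear intensity per probe set, scaled by the authors so that all 4 arrays have the same mean, 1501, once 2% of probe sets are trimmed at each end. Per the labels' protocols, biotin-labelled cRNA was made from total RNA with an oligo-dT primer. The software, summary method and genome build are not given in the sources used here. Genes were named through the platform annotation, updated by gene ID with the RefSeq table of GRCm38.p6 (10817 of 10833 single-gene probe sets matched).

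After removal of 66 control probe sets and of those with a mean below the 40th percentile (350.6), signals were raised to a floor of 110 (20th percentile) and put on the log2 scale. The genotypes, read from the titles, were tested over 7453 probe sets in limma (version 3.58.1, R 4.3.3), and p-values were adjusted by Benjamini-Hochberg (threshold 0.05). The same fit was also run on simulated data with independent noise and spreads shuffled over probe sets. Its outcome is not given here and is no support for the results above. With 2 arrays a group an exact permutation test has a smallest two-sided p of 0.333 and was not used. All members are named; companion genes are named where they passed or had the 2 lowest p-values. Members, gene lists and tests were chosen with earlier results of these data known; the AGGTCA search and the naming of succinate dehydrogenase subunits followed their values. The 13 alternatives changed the floor, filter, scaling, prior, probe sets, arrays and pairing.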

Additional observations from a re-analysis of the deposited data

How the results depend on the processing

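Member probe sets passing the threshold numbered 0 under all 13 alternatives, by limma, with a lowest adjusted p of 0.399 (Idh3a, no filter on low signals); 1 had an unadjusted p under 0.05 in the main setting. Probe sets lower without overlap numbered 11 after median scaling (27.0% of all probe sets) and 2 after quantile normalization (18.1%), against 4 (16.7%). Median scaling moved the median log2 difference of all probe sets from 0.03 to -0.09 and made the signs of the stronger Dlat probe set (-0.0097), Cs (-0.0099), 1 Dlst probe set (-0.11), Mdh2 (-0.10) and Slc25a11 (-0.083) negative. Quantile normalization made Pdhb 0.066 and Fh1 0.042.

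Without 1 array each, the passing count stayed 0, the member median ran from -0.13 to 0.02, the count higher without overlap from 5 to 10 and lower from 4 to 12, where 36.6% to 37.3% and 31.5% to 32.4% of all probe sets were so; a lone array is assumed to vary like the other group. Signs turned within -0.39 to 0.38 for Pdhb, -0.066 to 0.29 for Dlat, -0.023 to 0.70 for Pdk1, -0.030 to 0.26 for Cs, -0.37 to 0.00069 for Idh3g, -0.18 to 0.20 for Dlst, -0.25 to 0.0032 for Suclg2, -1.09 to 0.040 for Sucla2, -0.048 to 0.092 for Mdh2 and -0.29 to 0.37 for Slc25a11. The other 12 probe sets kept their direction under every alternative run. Where the genotypes did not overlap, only median scaling or quantile normalization could have turned it. With the sample number as a replicate block, 0 members passed and the median stayed -0.01; same-numbered samples deviated with a correlation of 0.01, so the numbers were not taken to pair samples. Precision is limited by having 4 arrays, and Got1, Idh3b, Mpc1 and Pdk3 were too dim to test.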
